A study of Mus musculus with 26 samples.

Results

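The AP-1 transcription factor family was followed in S49 mouse T-lymphoma cells given a cyclic AMP (cAMP) analog. Its members were all probe sets whose only gene symbol in the platform annotation was Fos, Fosb, Fosl1, Fosl2, Jun, Junb, Jund or Maff, which gave 10 probe sets of 22626 for 8 genes of 12393. Total RNA was hybridised to 26 arrays. Kin-, a variant of S49 in which cAMP-dependent protein kinase (PKA) is known to be inactive, was set against wild-type (WT) S49 cells. Each line was sampled untreated (0 h, 4 arrays) and after 2, 6 or 24 h with 8-CPT-cAMP, a cAMP analog, at 100 µM (3 arrays at each time). Kin- was represented by a single variant line, and there were no untreated arrays at 2, 6 or 24 h, so time in culture and exposure to the analog cannot be told apart within a line.

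AP-1 is a family of dimers built from Fos and Jun proteins, which join through a leucine zipper and bind DNA through an adjoining basic region. Fos proteins do not pair with each other and need a Jun partner, whereas Jun proteins can also pair among themselves, and in T cells AP-1 cooperates with NFAT factors at cytokine genes. Maff is a small Maf protein, a related zipper factor without an activation domain of its own. cAMP releases the catalytic subunits of PKA, which phosphorylate the factor CREB, and CREB binds the cAMP response element, whose palindrome is TGACGTCA and whose shorter core is TGACG.

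The bases before the transcript starts are shown for the 4 members that rose at 2 h and for Jun, a partner of the Fos proteins that passed no test in the unweighted fit without a block, because the cAMP response element lies in some of them. RefSeq promoter sequences of build GRCm38.p6 were matched for 7 of the 8 genes (9 windows, since Maff has 3 starts), and Fosl1 had no entry. The printed windows, each 250 bases long and written 5′ to 3′ on the gene's strand, are chr12:85473640-85473889 (Fos, plus strand), chr7:19310046-19310295 (Fosb, minus strand), chr8:84978749-84978998 (Junb, minus strand), chr15:79347270-79347519 (Maff, start 2, plus strand) and chr4:95052223-95052472 (Jun, minus strand). Capitals mark TGACG or TGACGTCA.
Fos: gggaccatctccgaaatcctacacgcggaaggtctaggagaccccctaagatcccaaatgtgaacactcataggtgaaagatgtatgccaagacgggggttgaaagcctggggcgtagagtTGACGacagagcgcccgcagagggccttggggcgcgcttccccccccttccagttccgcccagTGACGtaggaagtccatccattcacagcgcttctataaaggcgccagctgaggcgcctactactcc
Fosb: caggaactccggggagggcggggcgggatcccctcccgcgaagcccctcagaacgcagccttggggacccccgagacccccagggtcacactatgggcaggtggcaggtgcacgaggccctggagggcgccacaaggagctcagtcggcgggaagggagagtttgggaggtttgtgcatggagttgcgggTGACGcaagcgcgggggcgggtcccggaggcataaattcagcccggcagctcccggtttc
Junb: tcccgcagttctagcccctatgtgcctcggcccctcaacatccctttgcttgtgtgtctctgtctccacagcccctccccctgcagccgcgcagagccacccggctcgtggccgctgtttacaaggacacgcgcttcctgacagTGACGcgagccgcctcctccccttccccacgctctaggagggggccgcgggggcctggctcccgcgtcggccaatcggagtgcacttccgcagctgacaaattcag
Maff, start 2: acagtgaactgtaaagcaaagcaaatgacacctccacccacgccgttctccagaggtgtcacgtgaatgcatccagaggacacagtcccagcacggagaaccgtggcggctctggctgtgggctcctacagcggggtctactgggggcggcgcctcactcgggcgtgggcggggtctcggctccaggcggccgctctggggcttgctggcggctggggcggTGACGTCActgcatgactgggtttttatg
Jun: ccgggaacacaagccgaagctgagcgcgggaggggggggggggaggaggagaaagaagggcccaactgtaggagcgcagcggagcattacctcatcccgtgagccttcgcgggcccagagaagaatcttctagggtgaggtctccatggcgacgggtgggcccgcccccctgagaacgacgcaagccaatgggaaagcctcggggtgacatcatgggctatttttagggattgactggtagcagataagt

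Counted from the transcript start, Fos held TGACG at −129 to −125 and at −66 to −62, Fosb at −60 to −56 and Junb at −106 to −102. Maff held the palindrome TGACGTCA at −29 to −22 before start 2, which contains the core on both strands, a core on the opposite strand at −122 to −118 before start 3, and none before start 1. Jun, Jund and Fosl2 held neither. Both strands were searched, and among all 32851 windows of the table TGACG lay before the start in 17.8% and TGACGTCA in 1.55%. An AP-1 element, searched as TGANTCA, was present in 6.75% of all windows, and a CArG box, the binding sequence of serum response factor, in 1.47%; no member window held either. These matches describe the letters of the windows only. Bases further upstream were not searched, so a CArG box or AP-1 element of Fos or another member may lie there. The absence of a match from a window therefore does not show that the promoter lacks the element.

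**Figure D1:**
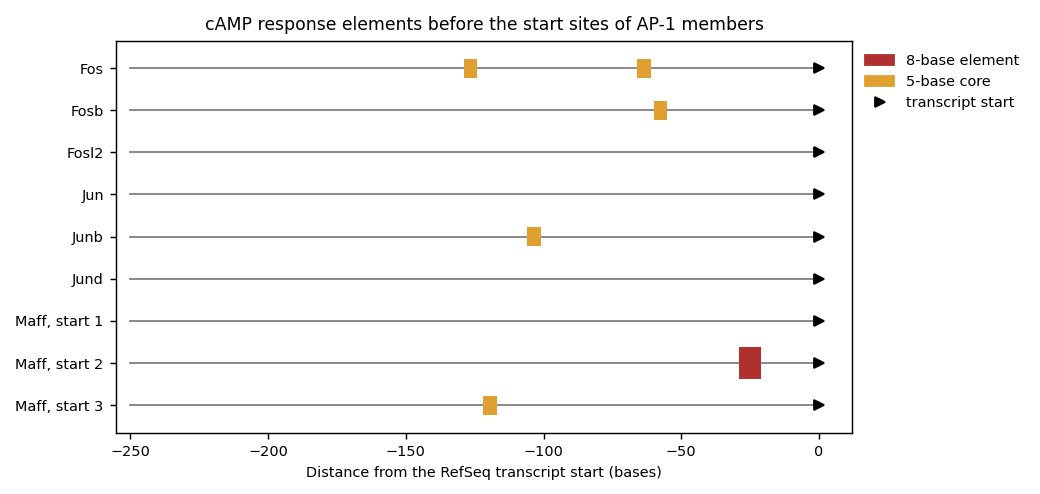
Positions of cAMP response elements before the RefSeq starts of 7 member genes. The horizontal axis is the distance from the transcript start in bases, each line is a window of 250 bases, small boxes are the core and the large box is the palindrome; Fos carries 2 cores, Fosb and Junb 1 each, and start 2 of Maff the palindrome at −29 to −22.

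Levels are given on the square root of the deposited value, read as a log2-like intensity. This reading is an assumption, so 1 unit need not equal a doubling. Where levels or differences of separate genes are set side by side, they are compared only in units of this scale, not as amounts of RNA. The array medians lay between 5.40 and 5.53, and 10% of all values were at or below 2.42 and 25% at or below 3.09. The table carries no detection call, and precision is limited by how many arrays each group has. Whether replicate arrays stem from separate cultures is not stated in the labels, so each p-value reflects only the array-to-array spread, which may be technical. Arrays numbered 1 to 14 (10 arrays) stood apart from arrays 16 to 47 (16 arrays): after group means were removed, the first principal component held 35.5% of the variance and separated both sets, with scores of at most −14.3 in the first and at least 6.23 in the second. Each treated group had 1 array in the first set and each untreated group had 2, so differences are also given within each set. All 7 measured T lymphocyte markers (Cd3e, Cd3d, Cd3g, Thy1, Zap70, Cd2 and Ptprc) had means above the median of the table, against 0 of 3 B lymphocyte, 1 of 5 macrophage and 0 of 4 fibroblast markers. The transcript of Prkaca, a catalytic subunit of PKA, lay between 8.52 and 9.04 in Kin- and between 8.44 and 9.22 in WT, which does not check the activity that Kin- lacks.

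In WT cells Fos, Fosb, Junb and Maff rose at 2 h with the analog, Fos and Junb at 6 h, and Fos, Junb and Jund at 24 h, and no member passed the test as lower than untreated. Fos had the largest difference of the members, 5.78 units at 2 h, and was still 2.45 units above untreated cells at 24 h. Maff and Fosb passed at 2 h and not at 6 or 24 h, whereas Junb had its highest means at 2 and 24 h. In limma's test 4 of 10 member probe sets passed in the upward direction at 2 h, where 7.11% of all probe sets rose and 7.25% fell. At 6 h 2 of 10 rose, against 9.52% of all probe sets that rose and 10.1% that fell. At 24 h 3 of 10 rose, against 14.4% that rose and 15.6% that fell. The median difference of the 10 members was 0.47, −0.04 and 0.04 at 2, 6 and 24 h, and that of all probe sets was 0.05, −0.03 and −0.01. In total 5 of 8 genes passed at 1 or more times, against 44.1% of all genes in either direction. In RNA from whole cultures a larger share of responding cells and more RNA per cell cannot be told apart.

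**Figure D2:**
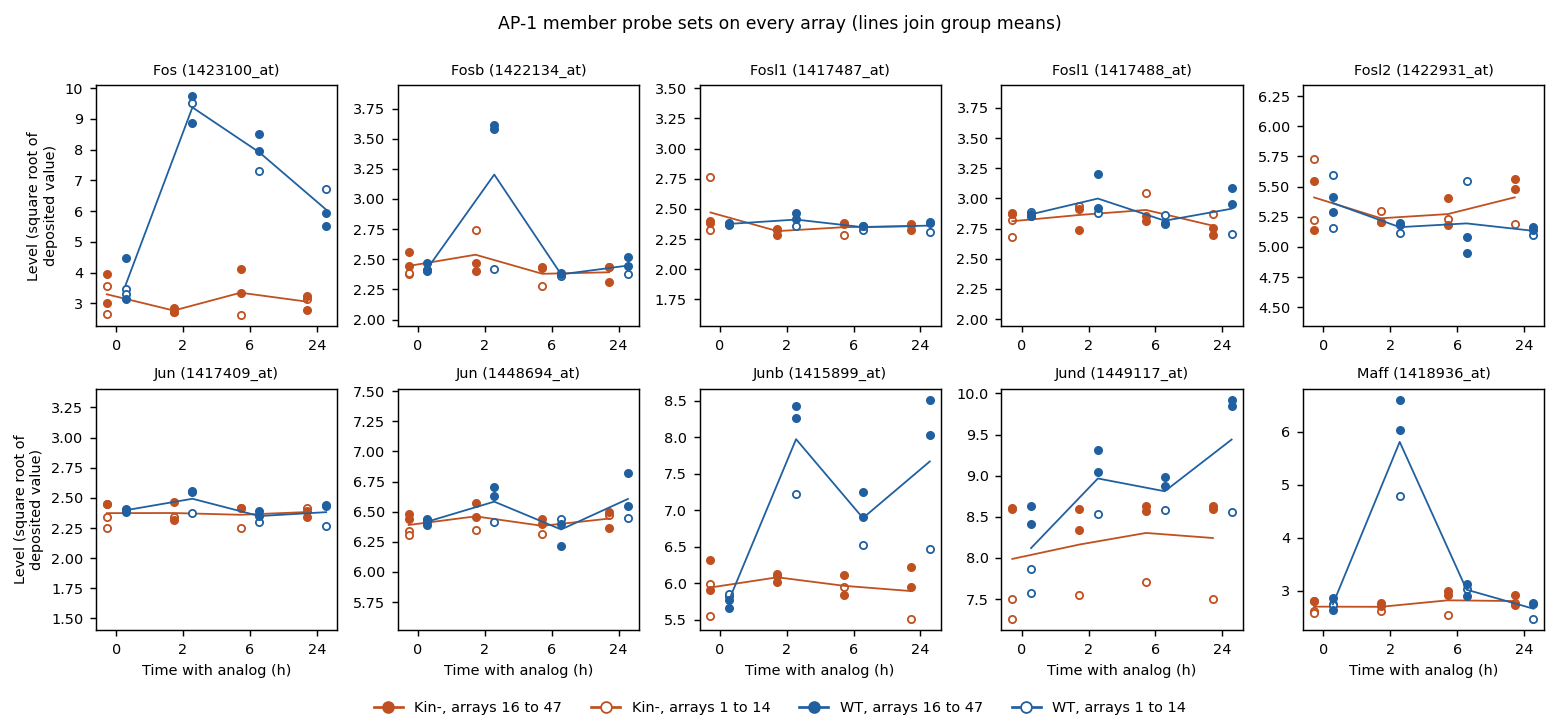
Level (square root of the deposited value) of each of the 10 member probe sets on every array against time with the analog in hours, with times evenly spaced. Kin- arrays are drawn in orange left of WT arrays in blue, open circles are arrays 1 to 14, filled circles are arrays 16 to 47 and lines join group means; Fos in WT reaches 8.86 to 9.74 at 2 h while all Kin- arrays lie between 2.61 and 4.11.

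Fos encodes c-Fos, the classical immediate-early partner of Jun proteins (probe set 1423100_at). In WT it had levels of 3.46, 3.29, 3.13 and 4.49 on the untreated arrays and 9.52, 8.86 and 9.74 at 2 h. It had 7.29, 8.50 and 7.95 at 6 h and 6.71, 5.51 and 5.92 at 24 h. Each treated WT array lay above all 4 untreated ones, and the 3 treated groups did not overlap each other. The WT group means were 3.59 ± 0.61 at 0 h (SD, n = 4), 9.37 ± 0.45 at 2 h, 7.91 ± 0.61 at 6 h and 6.05 ± 0.61 at 24 h (SD, n = 3 each). The differences from 0 h were 5.78 ± 0.39 at 2 h (SE, adjusted p = 1.63e-09), 4.32 ± 0.39 at 6 h (adjusted p = 7.35e-08) and 2.45 ± 0.39 at 24 h (adjusted p = 3.35e-05). Within arrays 1 to 14 these differences were 6.14, 3.92 and 3.33, and within arrays 16 to 47 they were 5.49, 4.41 and 1.91. They were thus positive in both sets, but the first set has only 1 treated array at each time. The order of the WT means was therefore 2 h, 6 h, 24 h and untreated, from high to low.

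The descent of Fos after 2 h was smaller than its rise. Its level at 6 h was below that at 2 h by a difference of −1.46 ± 0.42 (adjusted p = 0.0244), and its level at 24 h was below that at 6 h by −1.87 ± 0.42 (adjusted p = 0.00268). The first of these calls depended on single arrays: without WT array 2, 37, 3 or 38 its adjusted p was 0.0543, 0.096, 0.114 or 0.0632, and over all alternatives it ran from 0.00102 to 0.255. Within arrays 1 to 14 the steps were −2.23 and −0.58, and within arrays 16 to 47 they were −1.08 and −2.51. The second step had an adjusted p of 0.714 within arrays 1 to 14, and over all alternatives it ran from 7.21e-05 to 0.714. On a log2 scale of the deposited values neither step passed, with adjusted p = 0.255 and 0.0868.

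Fosb, whose product is a second strongly inducible Fos protein, had a brief and uneven rise (1422134_at). Its WT levels were 2.40, 2.41, 2.41 and 2.47 untreated and 2.42, 3.61 and 3.58 at 2 h. At 6 h they were 2.36, 2.38 and 2.39, and at 24 h 2.38, 2.45 and 2.52. Thus WT arrays 17 and 37 were high at 2 h and array 2 lay within the untreated range, so the groups overlapped. The difference at 2 h was 0.78 ± 0.18 (adjusted p = 0.00376), made up of 0.01 within arrays 1 to 14 and 1.15 within arrays 16 to 47. From 2 to 6 h Fosb dropped by 0.83 ± 0.19 (adjusted p = 0.00556), and at 6 and 24 h it differed from 0 h by −0.05 and 0.02 (adjusted p = 0.895 and 0.993). A fit to the WT arrays alone gave adjusted p = 0.051 for the rise at 2 h. The untreated levels were below the level of 3.09 that bounds the lowest 25% of all values.

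Maff, the small Maf factor, had the most transient of the large responses (1418936_at). Its WT levels were 2.74, 2.73, 2.64 and 2.85 untreated and 4.79, 6.60 and 6.03 at 2 h. At 6 h they were 3.03, 2.89 and 3.13, and at 24 h 2.46, 2.77 and 2.74. All 3 arrays at 2 h stood above all other WT arrays, and the 24 h arrays overlapped the untreated ones. The WT means were 2.74 ± 0.09 at 0 h (SD, n = 4), 5.81 ± 0.93 at 2 h, 3.02 ± 0.12 at 6 h and 2.66 ± 0.17 at 24 h (SD, n = 3 each). The difference from 0 h was 3.07 ± 0.24 at 2 h (adjusted p = 1.37e-08), 0.28 ± 0.24 at 6 h (adjusted p = 0.594) and −0.08 ± 0.24 at 24 h (adjusted p = 0.971). Between 2 and 6 h Maff dropped by 2.79 ± 0.26 (adjusted p = 1.27e-06). At 2 h the difference was 2.06 within arrays 1 to 14 and 3.58 within arrays 16 to 47. The untreated levels were below 3.09, among the lowest 25% of all values, and within arrays 1 to 14 Maff was lower at 24 h than untreated, by −0.28 (adjusted p = 0.0498).

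Junb encodes a Jun partner of Fos that is itself inducible (1415899_at). Its WT levels were 5.82, 5.84, 5.78 and 5.65 untreated and 7.23, 8.43 and 8.27 at 2 h. At 6 h they were 6.52, 6.91 and 7.25, and at 24 h 6.47, 8.51 and 8.03. Every treated WT array was above the untreated ones, but the treated groups overlapped each other, with array 2 low at 2 h and array 4 low at 24 h. The WT means were 5.77 ± 0.08 at 0 h (SD, n = 4), 7.97 ± 0.65 at 2 h, 6.89 ± 0.36 at 6 h and 7.67 ± 1.07 at 24 h (SD, n = 3 each). The differences from 0 h were 2.20 ± 0.34 at 2 h (adjusted p = 9.07e-05), 1.12 ± 0.34 at 6 h (adjusted p = 0.0232) and 1.90 ± 0.34 at 24 h (adjusted p = 0.00014). Within arrays 1 to 14 they were 1.40, 0.69 and 0.64, and within arrays 16 to 47 they were 2.63, 1.36 and 2.55. Whether Junb dipped between its highest means depended on the fit: it differed by −1.08 ± 0.37 between 6 and 2 h (adjusted p = 0.0563) and by 0.78 ± 0.37 between 24 and 6 h (adjusted p = 0.181). The first of these passed with the array set as a term (adjusted p = 0.0142), with the array series as a fixed or random block (0.0156 and 0.0118) and within arrays 16 to 47 (−1.27, adjusted p = 0.00169), and over all alternatives ran from 0.00113 to 0.295. Without WT array 4 the difference between 24 and 6 h was 1.38 (adjusted p = 0.00138), and over all alternatives its adjusted p ran from 0.00109 to 1. The 6 h call against untreated cells ended without WT array 36, 18 or 38 (adjusted p = 0.0512, 0.0687 and 0.125) and in a fit to the WT arrays alone (0.117), and over all alternatives ran from 5.02e-05 to 0.204.

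Jund encodes a Jun protein that most resting cells already contain (1449117_at). Its WT levels were 7.86, 7.57, 8.63 and 8.42 untreated and 8.54, 9.31 and 9.05 at 2 h. At 6 h they were 8.58, 8.98 and 8.87, and at 24 h 8.55, 9.92 and 9.84. The first 2 untreated values, of arrays 1 and 13, were lower than the others, and the treated groups overlapped the untreated one at all 3 times. The differences from 0 h were 0.85 ± 0.41 at 2 h (adjusted p = 0.208), 0.69 ± 0.41 at 6 h (adjusted p = 0.323) and 1.32 ± 0.41 at 24 h (adjusted p = 0.0164). Within arrays 1 to 14 they were 0.82, 0.87 and 0.84, and within arrays 16 to 47 they were 0.66, 0.40 and 1.36. With the array set as a term the differences at 2 and 6 h passed as well, at 0.69 (adjusted p = 0.00172) and 0.54 (adjusted p = 0.00945). The 24 h call ended without WT array 13 (adjusted p = 0.0572), 19 (0.102) or 39 (0.0905).

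**Figure D3:**
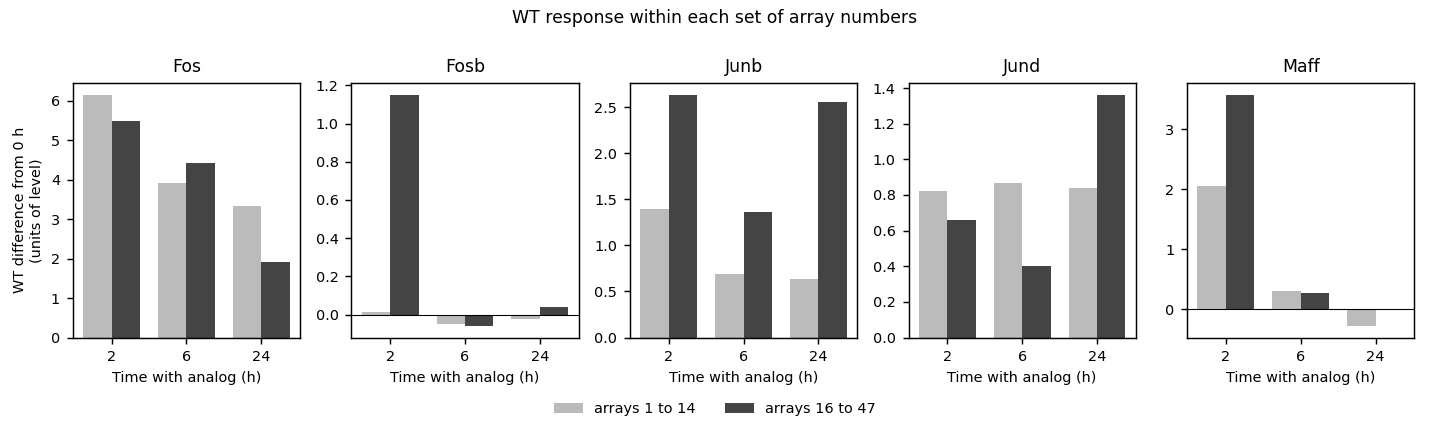
Difference of treated minus untreated WT cells in units of level, at 2, 6 and 24 h, within arrays 1 to 14 (light bars, 1 treated array a time) and within arrays 16 to 47 (dark bars, 2 treated arrays a time) for the 5 genes that rose. Fos had positive differences in both sets, whereas Fosb at 2 h differed by 0.01 in the first set and 1.15 in the second, and Junb at 24 h by 0.64 and 2.55.

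Jun, Fosl1 and Fosl2 passed no test in the main fit, with 1 mean per group and no other term. Jun encodes c-Jun, the founding Jun protein, and its 2 probe sets lay between 6.22 and 6.82 (1448694_at) and between 2.25 and 2.55 (1417409_at) over all 26 arrays. The 1448694_at probe set differed in WT by 0.17 at 2 h (95% interval −0.01 to 0.34), −0.06 at 6 h (−0.24 to 0.11) and 0.19 at 24 h (0.01 to 0.36), with adjusted p = 0.235, 0.773 and 0.108. Their upper limits lie below the differences of Fos and Maff at 2 h, and small differences in Jun are within them. Without WT array 4 the difference at 24 h was 0.27 (adjusted p = 0.0274), and with the array series as a random block it was 0.19 (adjusted p = 0.0454). With the array set as a term, a fixed block or a random block this probe set also passed between 6 and 2 h (−0.23, adjusted p = 0.0488, 0.045 and 0.0319) and between 24 and 6 h (0.25, adjusted p = 0.029, 0.0257 and 0.0159). After quantile normalization it passed in both steps too (−0.28, adjusted p = 0.038, and 0.25, adjusted p = 0.0495). Over all alternatives the adjusted p ran from 0.023 to 0.723 at 24 h, from 0.00128 to 0.854 between 6 and 2 h and from 0.00161 to 1 between 24 and 6 h. For 1417409_at the WT intervals were −0.03 to 0.23 at 2 h, −0.18 to 0.08 at 6 h and −0.15 to 0.11 at 24 h. With array weights both Jun probe sets passed at 2 h, 1448694_at by 0.24 (adjusted p = 0.0107) and 1417409_at by 0.14 (adjusted p = 0.03). Between 6 and 2 h 1417409_at passed with array weights (−0.17, adjusted p = 0.0105) and within arrays 16 to 47 (−0.18, adjusted p = 0.0353).

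Fosl1 and Fosl2 encode the Fos-related antigens Fra-1 and Fra-2, which lack the strong activation domain of c-Fos. Fosl2 (1422931_at) lay between 4.95 and 5.73 over all arrays and differed in WT by −0.20 at 2 h (95% interval −0.49 to 0.09), −0.17 at 6 h (−0.46 to 0.12) and −0.23 at 24 h (−0.52 to 0.06). Fosl1 lay between 2.29 and 2.76 on 1417487_at and between 2.68 and 3.20 on 1417488_at, near the dim end of the array. At 2 h its WT differences were 0.04 (−0.11 to 0.18) and 0.13 (−0.05 to 0.32), and with array weights the second was 0.21 (adjusted p = 0.0347). For 4 of the 10 member probe sets, those of Fosb and Fosl1 and Jun 1417409_at, the mean level lay in the lowest 25% of the table.

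**Figure D4:**
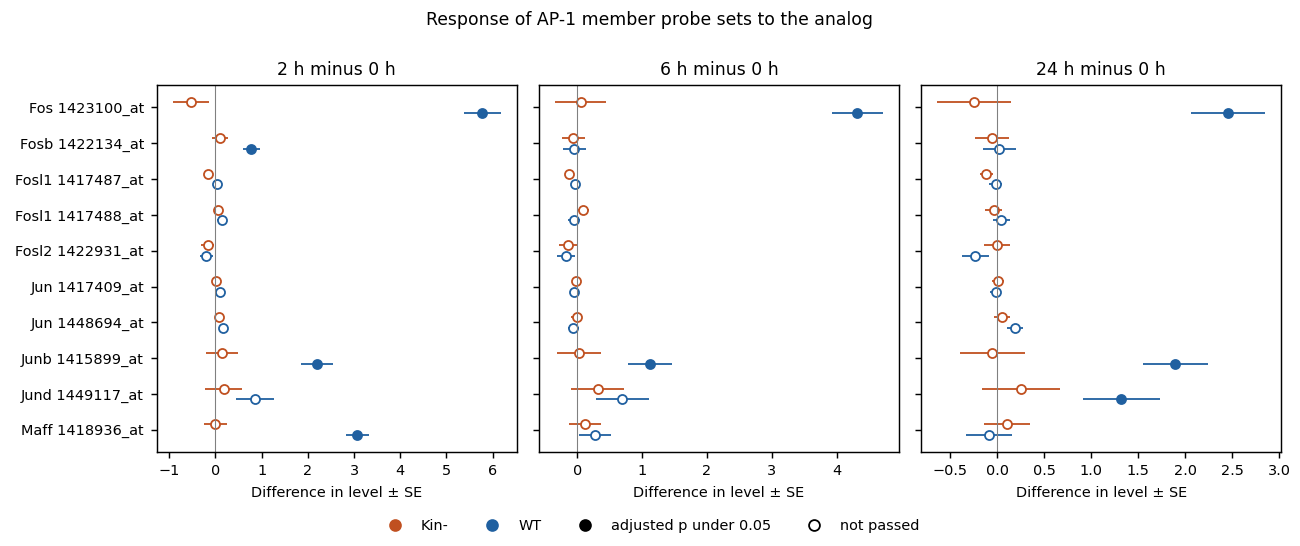
Difference from 0 h in units of level, with its standard error, for each of the 10 member probe sets at 2, 6 and 24 h. Kin- is drawn in orange above WT in blue, and filled symbols mark an adjusted p under 0.05 in limma's test over 22626 probe sets; 4, 2 and 3 WT symbols are filled and no Kin- symbol is.

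Between consecutive treated times the members that passed in the main fit were lower at the later time. From 2 to 6 h 3 of 10 member probe sets fell (Fos, Fosb and Maff), where 6.66% of all probe sets fell and 6.37% rose. From 6 to 24 h 1 of 10 fell (Fos), where 9.16% fell and 8.64% rose. With the array set as a term 2 members rose from 6 to 24 h, Jund by 0.63 (adjusted p = 0.00508) and Jun 1448694_at by 0.25 (adjusted p = 0.029). Within arrays 16 to 47 Junb rose there too, by 1.19 (adjusted p = 0.0012). Both steps share the 6 h arrays, so they are not independent of each other, and the same untreated arrays underlie the 3 differences from 0 h.

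In Kin- cells no member passed at any time. Fos lay between 2.61 and 4.11 on all 13 Kin- arrays, against 3.13 to 9.74 on the 13 WT arrays, and differed in Kin- by −0.53 ± 0.39 at 2 h, 0.05 at 6 h and −0.24 at 24 h. Its Kin- levels were 3.56, 2.66, 3.00 and 3.96 untreated and 2.72, 2.86 and 2.72 at 2 h. At 6 h they were 2.61, 4.11 and 3.32, and at 24 h 3.15, 2.78 and 3.23. Treated and untreated Kin- arrays overlapped for Fos at all 3 times. Maff lay between 2.54 and 3.00 in Kin-, against 2.46 to 6.60 in WT, and Junb between 5.51 and 6.32 in Kin-, against 5.65 to 8.51 in WT. Of Maff the Kin- arrays had 2.60, 2.57, 2.80 and 2.80 untreated and 2.62, 2.76 and 2.70 at 2 h. Of Junb they had 5.55, 5.98, 5.91 and 6.32 untreated, 6.10, 6.12 and 6.02 at 2 h and 5.51, 6.22 and 5.95 at 24 h. At 6 h the Kin- arrays had 2.54, 3.00 and 2.91 for Maff, and at 24 h 2.77, 2.72 and 2.91, so some lay outside the untreated range of Maff. Treated Kin- arrays lay within or next to the untreated range for Junb.

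Jund was split by array set in Kin- as in untreated WT cells. The 5 Kin- arrays of the first set had 7.50 and 7.26 untreated and 7.55, 7.71 and 7.50 at 2, 6 and 24 h. The other 2 untreated Kin- arrays had 8.61 and 8.59. Fosb lay between 2.28 and 2.74 in Kin-, against 2.36 to 3.61 in WT, and its highest Kin- level was that of array 6 at 2 h.

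Of the 10 members 0 passed in Kin- at 2, 6 and 24 h in limma's test, and of all 22626 probe sets 0% passed at 2 h, 0% at 6 h and 0% at 24 h as well. At an unadjusted p under 0.05 there were 1, 0 and 0 members and 2.16%, 1.9% and 2.17% of all probe sets. The member below that limit at 2 h was Fosl1 1417487_at, with a difference of −0.15 (unadjusted p = 0.0381). The 95% intervals of the Kin- differences at 2 h were −1.35 to 0.29 for Fos, −0.51 to 0.50 for Maff and −0.57 to 0.86 for Junb.

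Before treatment the lines did not differ detectably in any member: 0 of 10 probe sets passed for Kin- minus WT at 0 h, where 3.01% of all probe sets passed in either direction. The differences ran from −0.30 for Fos (95% interval −1.05 to 0.46) to 0.17 for Junb (−0.50 to 0.83). The responses of both lines were then compared directly, as the Kin- response minus the WT response. At 2 h 3 of 10 members were lower in Kin-, against 3.51% of all probe sets, with a difference of −6.31 ± 0.55 for Fos (adjusted p = 2.42e-07), −3.07 ± 0.34 for Maff (adjusted p = 5.02e-06) and −2.06 ± 0.48 for Junb (adjusted p = 0.0099). At 6 h 1 of 10 was lower, against 5.07%, with a difference of −4.27 ± 0.55 for Fos (adjusted p = 2.6e-05). At 24 h 2 of 10 were lower, against 10.2%, with a difference of −2.70 ± 0.55 for Fos (adjusted p = 0.00094) and −1.94 ± 0.48 for Junb (adjusted p = 0.00497). Within arrays 1 to 14 the Junb difference was −1.06 at 2 h and −0.89 at 24 h, and within arrays 16 to 47 it was −2.68 and −2.59. The 3 comparisons share the untreated arrays of both lines.

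The other induced members did not pass that comparison at the time of their rise. For Fosb the responses at 2 h differed by −0.69 ± 0.25 (adjusted p = 0.121), by 0.35 within arrays 1 to 14 and by −1.22 within arrays 16 to 47. Without WT array 2 the difference was −1.08 (adjusted p = 1.79e-06), and over all alternatives its adjusted p ran from 1.79e-06 to 0.363. For Jund the responses at 24 h differed by −1.07 ± 0.58 (adjusted p = 0.252), and with the array set as a term by −1.07 (adjusted p = 0.000455). For Junb at 6 h the difference was −1.10 ± 0.48 (adjusted p = 0.196), −0.51 within arrays 1 to 14 and −1.51 within arrays 16 to 47 (adjusted p = 0.0044). It passed with array weights (−1.47, adjusted p = 0.000767) and without WT array 4 (0.039), and over all alternatives ran from 0.000767 to 0.537.

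Other genes whose group means followed those of a member were picked by the correlation over the 8 group means, among 2768 genes whose means spanned at least 1 unit. For Fos they were Hdhd3 (r = 0.995), Ifng (r = 0.995) and Map2k3 (r = 0.993), for Junb Batf (0.991), Abcb9 (0.989) and Isca1 (0.984). For Jund they were Fbrs (0.993), Zmym5 (0.990) and Tnfaip3 (0.989), and for Maff Nup98 (0.993), Epm2aip1 (0.985) and Slc25a25 (0.976). All points share the same arrays, and genes with the highest of many correlations are high by selection. The cytokine gene Ifng had means of 2.66, 6.14, 5.15 and 4.12 in WT at 0, 2, 6 and 24 h. Nup98, a nuclear pore component, had means of 7.41, 9.45, 7.68 and 7.40, highest at 2 h as was Maff.

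Lists of genes around AP-1, 7 in all, were counted next, each gene by its brightest probe set. Of 88 measured genes 13 rose and 7 fell in WT at 2 h, where 7.25% of all genes rose and 8.44% fell. At 6 h 15 rose and 7 fell, against 11% and 11.1% of all genes, and at 24 h 16 rose and 11 fell, against 16.3% and 16.3%. The same shares of all genes stand against the counts of each single list below. In Kin- 0 of the 88 passed at any time, and at 0 h 0 were higher and 2 lower in Kin- than in WT. These were Trib2 (−1.76, adjusted p = 0.0224) and Zfp36l2 (−0.60, adjusted p = 0.0117). Of all probe sets 3.01% passed in either direction in that comparison of untreated cells.

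Among 7 ATF, BATF and JDP partners, which form dimers with Fos or Jun proteins, 2 rose and 0 fell at each time. They were Batf, which pairs with Jun proteins and has no activation domain, with differences of 1.33, 0.83 and 1.31 at 2, 6 and 24 h, and Jdp2, a repressive Jun partner, with 1.16, 0.84 and 0.91. The list medians were 0.15, 0.08 and −0.02, against 0.05, −0.03 and −0.01 for all genes. Among 10 Maf and CNC factors, the partners of small Maf proteins, 1 rose at each time and 1, 3 and 2 fell (medians 0.04, −0.02 and −0.01). Bach1, a repressor that pairs with small Mafs, rose by 0.76, 0.95 and 1.76. Nfe2l2, the oxidative stress factor NRF2, changed by −0.49, −0.59 and −0.46, and at 6 h the small Mafs Mafg and Mafk changed by −0.50 and −0.59.

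Kinase genes of the MAP kinase pathways to AP-1 moved both ways. Of 19 measured, 2 rose and 4 fell at 2 h, 3 rose and 2 fell at 6 h, and 3 rose and 1 fell at 24 h (medians 0.18, 0.07 and −0.02). Map2k3, an activator of p38, rose by 1.23, 1.00 and 0.50, and Map3k1, upstream of JNK, by 1.01, 0.72 and 1.18. Map2k6, another direct activator of p38, changed by −1.99 at 2 h (adjusted p = 1.05e-05) and differed by −0.03 at 6 h (adjusted p = 0.95). Map2k5, upstream of ERK5, changed by −0.75 and −1.01 at 2 and 6 h, and Mapk14, p38 alpha, by −0.54, −0.47 and −0.39. Mapkapk2, a p38 substrate, rose by 0.77 at 6 h, and Araf, a RAF kinase, changed by −0.44 at 2 h (adjusted p = 0.000123) and by 0.67 at 24 h (adjusted p = 1.56e-07).

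Among SRF and its cofactors, which act on the serum response element of Fos, 1 of 6 rose and 1 fell at 2 h, 1 rose at 6 h and 3 rose at 24 h (medians 0.04, 0.29 and 0.61). Mrtfa, an actin-controlled coactivator of SRF, rose by 1.37, 1.93 and 1.66, while Srf itself changed by −0.78 at 2 h (adjusted p = 0.000265). The ternary complex factors Elk3 and Elk4 rose by 2.08 and 1.14 at 24 h. Among 8 NFAT partners, 1 rose and 1 fell at 2 h, 1 and 1 at 6 h, and 1 and 2 at 24 h (medians −0.03, 0.01 and −0.17). Nfatc1 rose by 0.77 and 0.75 at 2 and 6 h and Nfat5 by 1.58 at 24 h. Rcan1, a calcineurin regulator, changed by −1.16 at 2 h. The calcineurin subunit gene Ppp3cb changed by −0.64 and −1.20 at 6 and 24 h, and Ppp3r1, which encodes the regulatory subunit, by −0.35 at 24 h.

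Genes for the degradation of AP-1 proteins and mRNAs changed in both directions. Of 11 measured, 1 rose at 2 h, 3 rose and 1 fell at 6 h, and 3 rose and 3 fell at 24 h (medians 0.16, −0.06 and −0.03). Zfp36, which encodes tristetraprolin, a protein that destabilises AU-rich mRNAs such as that of Fos, rose by 3.79 ± 0.21 at 2 h (adjusted p = 8.87e-11), 1.69 at 6 h and 1.38 at 24 h. Trib2, an adaptor of the COP1 ubiquitin ligase, rose by 2.14 and 2.87 at 6 and 24 h, and Zfp36l2, a relative of Zfp36, by 0.69 and 1.03. Hnrnpd, another AU-rich binding protein, changed by −0.44 and −1.39 at 6 and 24 h. At 24 h Elavl1, which stabilises such mRNAs, changed by −0.74 and Cops5, a subunit of the COP9 signalosome, by −0.47.

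Among 27 known AP-1 target genes 5 rose and 0 fell at 2 h, 4 rose and 0 fell at 6 h, and 3 rose and 3 fell at 24 h (medians 0.08, −0.02 and 0.00). Of all genes 7.25%, 11% and 16.3% rose and 8.44%, 11.1% and 16.3% fell at these times. Ifng rose by 3.48 ± 0.80 at 2 h (adjusted p = 0.00418) and 2.49 at 6 h (adjusted p = 0.0313), and differed by 1.45 at 24 h (adjusted p = 0.218). Ezr, which encodes the membrane linker ezrin, rose by 0.70 at 2 h and changed by −0.40 at 24 h. Plaur, the urokinase receptor, rose by 0.27, 0.54 and 0.43, and Tgfb1 by 0.75 and 0.99 at 6 and 24 h. At 24 h Il4 rose by 0.47, from a mean of 2.76 to 3.23, near the level of 3.09 that bounds the lowest 25% of all values. At the same time Odc1, the first enzyme of polyamine synthesis, changed by −0.76 and Dnmt1, the maintenance DNA methyltransferase, by −1.50. At 2, 6 and 24 h 22, 23 and 21 of the 27 targets did not pass.

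**Figure D5:**
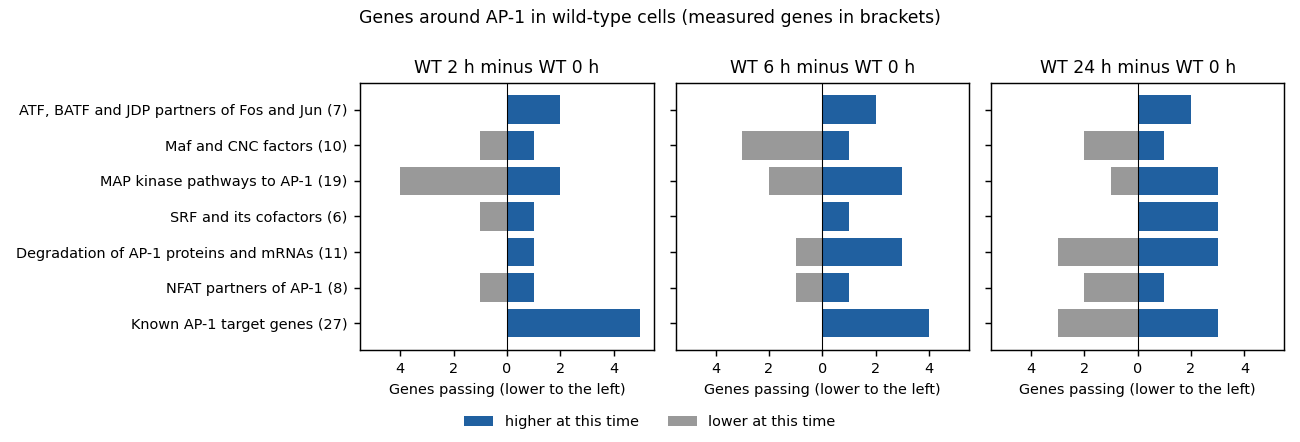
Number of genes of each list around AP-1 that rose (blue, to the right) or fell (grey, to the left) in WT cells at 2, 6 and 24 h relative to 0 h, with the number measured in brackets. The known AP-1 targets show 5, 4 and 3 genes that rose of 27 measured, and the ATF, BATF and JDP partners 2 of 7 at each time. Of all genes 7.25%, 11% and 16.3% rose at these times.

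Cell type markers were counted beside these lists. Of the 7 T lymphocyte markers 1 rose and 2 fell in WT at 2 h, 2 rose and 2 fell at 6 h, and 5 rose and 2 fell at 24 h. The shares of all genes at these times were 7.25%, 11% and 16.3% that rose and 8.44%, 11.1% and 16.3% that fell. Of the 5 macrophage markers 1 rose at 2 h, 0 at 6 h and 1 at 24 h, and of 3 B lymphocyte and 4 fibroblast markers 0 passed at any time. None passed in treated Kin- cells, and the part of these changes in the member results was not tested.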

How the data were processed

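Gene expression was measured in 26 arrays of WT and Kin- S49 cells, grouped from the labels. The authors deposited 1 processed score per probe set and array in a single table. The method behind these deposited scores, like their scale, is not given in the sources used here. Depth does not apply to arrays. The square root of each score was taken as the level, without further normalization. Of 22626 probe sets 20380 have 1 gene symbol in the platform annotation, 691 several and 1555 none. A model with 1 mean per group was fitted to all arrays and probe sets with limma 3.58.1 in R 4.3.3 (residual df 18), and p-values were adjusted by Benjamini-Hochberg over all probe sets, with a threshold of 0.05. The code was tested on simulated data. Figures used Python 3.11.15 and matplotlib 3.10.9. No column of the table was without a sample.

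The named genes follow a rule: all member probe sets; in each list around AP-1, up to 3 passing genes with the largest rise and up to 3 with the largest fall at each time; and the 3 genes with the highest correlation for each member whose group means span at least 1 unit. Members, gene lists and this rule were chosen with earlier results of these data known. Promoter motifs were searched in RefSeq sequences. Besides leaving out each of the 26 arrays, 12 alternatives were run, on the transform, normalization, dim probe sets, array sets, array series, weights and samples fitted.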

Additional observations from a re-analysis of the deposited data

Results flagged for a closer look

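The 30 differences between the Kin- and WT responses were examined, and 6 passed limma's adjusted test, all as lower in Kin-. Of all 22626 probe sets 1566 passed in either direction at 2 h, 2444 at 6 h and 4859 at 24 h. As lower in Kin-, 3.51%, 5.07% and 10.2% of all probe sets passed at these times. At 2 h the Kin- response minus the WT response was −6.31 for Fos (adjusted p = 2.42e-07), −3.07 for Maff (adjusted p = 5.02e-06) and −2.06 for Junb (adjusted p = 0.0099). At 6 h it was −4.27 for Fos (adjusted p = 2.6e-05), and at 24 h −2.70 for Fos (adjusted p = 0.00094) and −1.94 for Junb (adjusted p = 0.00497). For Fos the difference at 2 h was −6.53 within arrays 1 to 14 and −6.18 within arrays 16 to 47. For Maff these values were −2.03 and −3.65, and for Junb −1.06 and −2.68. No array stood far from its group by Dixon's criterion in the 20 sets of 4 untreated levels that were examined, where chance alone gives about 1 in 20.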

How the results depend on the processing

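Of 4462 values of the 120 member results under the alternatives, 4363 stayed on their side of the threshold, 35 lost the call and 64 gained one. No value called in either fit changed its sign, whereas 157 values that were called in neither did. The number of member probe sets called changed as follows, and the cause was not tested. Untransformed values gave 1 for WT at 6 h, log2 values gave 2 for 6 h against 2 h and 0 for 24 h against 6 h in WT, and quantile normalization gave 4 and 2 there. With the array set as a term there were 5 and 3 for WT at 2 and 6 h, 5 and 3 for both steps (6 h against 2 h, 24 h against 6 h), and 4 and 3 for the responses compared at 2 and 24 h, and the array series as a fixed block gave the same counts. As a random block (correlation 0.305) it gave 4 for WT at 24 h and 5 and 2 for the steps. Arrays 16 to 47 alone gave 5 and 3 for WT at 2 and 6 h, 5 and 4 for the steps, and 5, 2 and 3 for the responses at 2, 6 and 24 h. Arrays 1 to 14 alone, with a residual df of 2, gave 1, 0 and 2 for WT, 0 and 0 for the steps and 0, 0 and 0 for the responses. Array weights gave 8 and 5 for WT at 2 and 24 h, 7 and 5 for the steps, and 4, 2 and 3 for the responses. The number called among all 22626 probe sets changed with the setting too. For WT at 2 h it was 3249 in the main fit and 6513 with array weights. It was 4308 with the array set as a term, 4627 within arrays 16 to 47, and 4421 and 4511 with the series as a fixed and a random block. Untransformed values gave 3201, log2 values 2974, quantile normalization 3163 and the WT arrays alone 2545. For the other comparisons no such totals were taken under the alternatives. Whether the member counts there follow those of all probe sets therefore cannot be told. For the members, a fit to the WT arrays alone gave 3 and 1 for WT at 2 and 6 h and 1 for 6 h against 2 h. Leaving out single arrays gave 1 to 2 for WT at 6 h, 1 to 3 for 24 h against 6 h, 2 to 4 for 6 h against 2 h, 2 to 4 for WT at 24 h, and 1 to 2 and 3 to 4 for the responses at 6 and 2 h. The groups share no replicate numbers, and the labels do not say that a series of consecutive array numbers pairs its arrays. After removal of dim probe sets 16969 were tested, with 6 of the 10 member probe sets, and 3 of them passed in WT at 2 h. Maff, 1 of these 3, had a group mean of 5.81 in WT at 2 h and of 2.66 to 3.02 in every other group. The removal went by level, to which the 2 h arrays contribute, so passing after it is no separate support for Maff. Signal over background cannot be judged without detection calls. Fosb, Fosl1, Jun 1417409_at and, in every group but WT at 2 h, Maff had group means or levels near or below 3.09, the bound of the lowest 25% of all values.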
